A study of Mus musculus with 6 samples.

Results

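The transcription end site (TES) regions of mouse neural precursor cells (NPCs) were examined for RNA polymerase II (Pol II). A TES region was the window from 100 bases upstream to 2000 bases downstream of the annotated end of a gene. Each TES region was paired with the gene body of the same gene, and a gene was kept when both had a mean of at least 10 reads over the 6 libraries. Of 12107 TES regions among 36321 gene regions (promoters, gene bodies and TES regions), 12076 were kept. Of the 31 left out, 30 had too few TES reads and 1 too few gene body reads. The genes just inside the minimum were Gm3468 and Prelid2, with a mean of 10.2 TES reads each, and Gm14322 with 10.3. Those just outside were Ly96 with 8.5, Ptx3 with 9.17 and Usp9x with 9.33.

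The antibody used for the immunoprecipitation recognises the N-terminal domain of RPB1 (POLR2A), the largest Pol II subunit. The 6 libraries came from cultures of 3 wild-type (WT) and 3 Armc5(-/-) knockout (KO) samples, numbered as pairs 1 to 3, and KO was compared with WT throughout. All cells were neurospheres, floating clusters of dividing precursor cells, from the ganglionic eminences of fetuses of the strain 129 sv X CD1, used after the 2nd passage without any further treatment. The study's methods name a different cross with CD1 as the background of its mice, and this conflict was not resolved here. Reads of Armc5 were not analysed here and could not serve to check the genotype. As the signal is a mean over each culture, fewer cells of a type and less Pol II per cell cannot be told apart. All 7 neural precursor markers (such as Sox2 and Nes) were among the genes kept, with a summed TES signal of 105 to 298 CPM (reads scaled to a common library size) per library. By pair it was 298 (WT) and 264 (KO) CPM in pair 1, 181 and 146 in pair 2, and 105 and 110 in pair 3. Of the 5 neuronal markers 4 were kept (15.4 to 23.0 CPM summed) and of the 4 astrocyte markers 1 (2.53 to 4.39 CPM). Of the 5 oligodendrocyte lineage markers 3 were kept, with 179 (WT) and 149 (KO) CPM in pair 1 and 35.6 to 43.3 CPM in the other 4 libraries. The part that these differences between pairs, in precursor and oligodendrocyte lineage markers, have in the results was not tested. Of the 5 markers of microglia and blood and the 3 of mesenchyme, 0 had a TES region that passed the minimum, and the 1 endothelial marker kept had 0.586 to 1.77 CPM.

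Pol II passes the end of a gene before it leaves the DNA. Cleavage of the transcript at the polyadenylation (poly(A)) site lets the exonuclease XRN2 attack the RNA that the enzyme still makes, and the enzyme slows and is released downstream. Genes for replication-dependent histones end differently, at a short RNA stem-loop that is cut without addition of a poly(A) tail. ARMC5 is the substrate-binding part of a ubiquitin ligase for RPB1, and the question here was whether, without it, the signal at the end of genes changed relative to that within them.

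The DNA at the ends of the genes on which the results turn follows, as 30 bases before and 30 bases after the annotated end in GRCm38, 5′ to 3′ on the strand of the gene. Capitals mark the copy of the poly(A) signal AATAAA or ATTAAA nearest to the end or, in the pair of histone genes, a stem-loop. These ends were chosen because the TES to gene body ratio, or for Hist1h1a the gene body signal (log2 fold change 1.24 ± 0.18, limma adjusted p = 0.0395), differed between KO and WT.
Rrm1 (chr7:102469742-102469801, plus strand): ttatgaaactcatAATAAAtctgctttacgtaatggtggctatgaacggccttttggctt
Slx1b (chr7:126689438-126689497, minus strand): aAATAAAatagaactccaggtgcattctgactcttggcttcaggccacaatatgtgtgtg
Armh1 (chr4:117213304-117213363, minus strand): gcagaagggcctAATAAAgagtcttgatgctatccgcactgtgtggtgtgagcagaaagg
Tob1 (chr11:94215466-94215525, plus strand): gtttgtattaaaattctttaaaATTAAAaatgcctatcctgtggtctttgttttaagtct
Sox9 (chr11:112787731-112787790, plus strand): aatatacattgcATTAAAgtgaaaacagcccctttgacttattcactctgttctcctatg
Rplp1 (chr9:61913254-61913313, minus strand): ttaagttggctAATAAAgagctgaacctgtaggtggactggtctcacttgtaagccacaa
Gadd45g (chr13:51848439-51848498, plus strand): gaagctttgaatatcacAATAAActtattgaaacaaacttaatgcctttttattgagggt
Hist2h2ac (chr3:96220331-96220390, minus strand): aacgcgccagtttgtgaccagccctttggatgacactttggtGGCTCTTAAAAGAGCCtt
Hist1h1a (chr13:23764377-23764436, plus strand): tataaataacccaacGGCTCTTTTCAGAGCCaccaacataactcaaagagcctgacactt

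The poly(A) signal was a common feature of the windows. AATAAA stood in the last 50 bases of 63.4% of 12071 genes with a known position and in 7.56% of the same stretches read on the other strand. ATTAAA stood in 18.1% and 6.74%, with some genes holding both, and either stood in 77.9% and 13.6%. The stem-loop search took a stem of 6 paired bases that begins with GG and a loop of 4 bases that begins with T, within 100 bases of the end on either side. It found 21 windows (0.174%) on the strand of the gene and 14 (0.116%) on the other strand. Core histone genes made up 9 of these 21 windows and linker histone genes 2, although only 31 core and 4 linker histone genes were kept. A match describes the sequence alone.

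The libraries held between 14528870 and 25199455 reads in all regions, and a TES region held a median of 45 to 89 reads per library. At this depth the median standard error (SE) of a log2 fold change was 0.20 both for TES signal and for the ratio. The third pair stood apart, with 88.1% (WT) and 87.2% (KO) of its reads in gene bodies against 80.3% to 82.6% in the other 4 libraries. WT replicate 3 also had 0 reads in the TES regions and 9 in the gene bodies of the 4 genes on the Y chromosome, against 73 to 207 and 1837 to 4090 in the other libraries. Values without the third pair are therefore given below.

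The TES windows held slightly more reads per base than the gene bodies in WT and KO cells. No input was used, and gene lengths came from an annotation that may differ from the one behind the windows. Over 12016 genes of at least 1000 bases, the signal per base in the TES region was a median of 1.12 times that of the gene body over the 6 libraries. It was higher in the TES region in 61.1% of these genes, and the 5th and 95th percentiles were 0.447 and 2.89. In WT the library medians were 1.22, 1.14 and 1.14 for replicates 1 to 3, and in KO they were 1.11, 1.08 and 1.11. This per-base ratio was lower in short genes, with a median of 0.644 in genes under 5 kb, 1.02 from 5 to 20 kb, 1.24 from 20 to 100 kb and 1.24 over 100 kb. It was also higher in windows that hold the start of another gene, 1.61 against 1.09 in the others.

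Among windows that overlap no other annotated gene, the per-base ratio was highest at Mto1, which encodes an enzyme that modifies mitochondrial transfer RNAs (13.3 times the gene body over the 6 libraries). Its TES region held 87.5, 30.9 and 43.3 CPM in WT and 76.3, 35.9 and 58.3 CPM in KO, and the groups overlapped. The next gene downstream, at 3101 bases, is Eef1a1, which encodes the elongation factor that brings aminoacyl transfer RNAs to the ribosome, and it is transcribed towards Mto1. Next in order were Rnf43, a gene for a ubiquitin ligase of the Wnt pathway (11.0 times), Ccdc30 (10.4), Doc2b (9.17), the receptor tyrosine kinase gene Axl (9.17) and Fam120a (8.67). The next gene was transcribed towards the window for Doc2b and Fam120a, and in the same direction for Rnf43, Ccdc30 and Axl. The 6 lie between 2013 and 3759 bases from that next gene.

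Among the same free windows of genes of at least 1000 bases, those with the least signal relative to the gene body per base were the windows of Hist1h3f (0.033 times), Hist4h4 (0.043) and Hist2h4 (0.064), all of them core histone genes, the cell adhesion gene Chl1 (0.054), B930094E09Rik (0.064) and Gm10961 (0.068). In Chl1, a gene of 239626 bases, the TES region held only 12, 16 and 24 reads in WT and 16, 24 and 24 in KO, and the gene body 27417 to 52240. The highest TES signal over free windows of genes of at least 1000 bases was that of Gm10801, a predicted gene with 847 to 3275 CPM. Next by TES signal came Inka2, the creatine kinase gene Ckb, Mto1, the oligodendrocyte lineage gene Olig2, the actin genes Actb and Actg1, and Nfe2l3. None of these 8 had a called change, and their log2 fold changes in the TES region lay between -0.29 and 0.11.

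Relative to gene bodies, the TES signal of the median gene was lower in KO by a small margin in pairs 1 and 2 and level in pair 3. Per 100 gene body reads the median gene of WT replicates 1 to 3 had 11.1, 10.3 and 10.4 TES reads, and that of KO replicates 1 to 3 had 10.0, 9.70 and 10.4. On the log2 scale, with 0.5 added to each count, the library median averaged -3.23 ± 0.06 over the 3 WT libraries and -3.30 ± 0.05 over the 3 KO libraries (SD). The pair differences were -0.15, -0.08 and -0.01, with a mean of -0.08 (two-sided exact sign-flip permutation test, p = 0.25). With 3 pairs 0.25 is the smallest p that this test can give, so a difference of any size could not pass. The share of all reads in TES regions was 7.94%, 6.74% and 5.83% in WT and 7.47%, 6.43% and 5.93% in KO. It was lower in KO in pairs 1 and 2 and higher in pair 3, with a mean difference of -0.22 percentage points (exact sign-flip permutation p = 0.5).

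**Figure D1:**
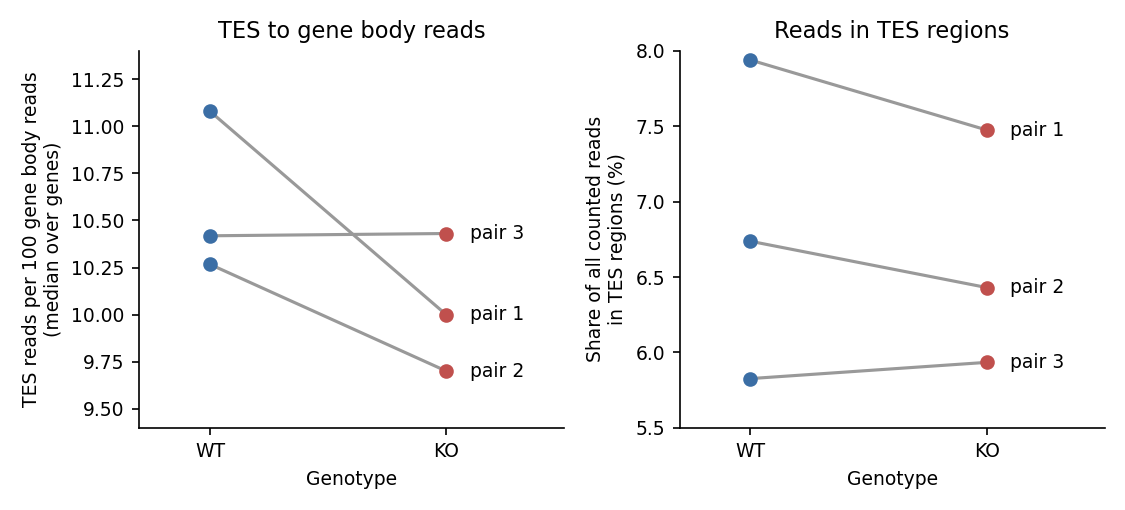
Left, the median over 12076 genes of the TES reads per 100 gene body reads (vertical axis, from 9.4) in each WT and KO library. Right, the share of all counted reads that fell in TES regions (vertical axis, percent, from 5.5). Lines join the libraries of a pair, and both measures were lower in KO in pairs 1 and 2 while pair 3 was near level.

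The same was seen gene by gene. The ratio was lower in KO in 65.0% of genes in pair 1, 60.5% in pair 2 and 52.9% in pair 3, with median differences of -0.13, -0.09 and -0.03 on the log2 scale. It was lower in all 3 pairs in 2746 genes (22.7%) and higher in all 3 in 941 (7.79%). In the fit across all genes the median change was -0.08, which is a ratio 0.945 times that of WT. In the fit over all regions, scaled together, the median log2 fold change was -0.08 (TES regions), -0.01 (gene bodies) and 0.03 (promoters) over these genes. Counts were scaled within the libraries, so a change of Pol II common to all regions would not be visible, and the fold changes of TES regions depend on the scaling. When the libraries were scaled on TES regions alone the median was -0.01.

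**Figure D2:**
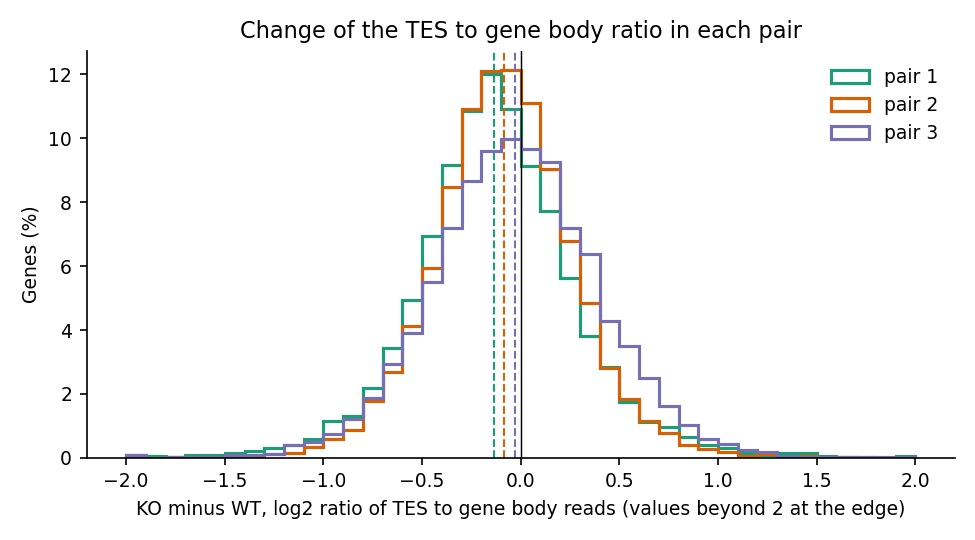
Distribution over 12076 genes of the change of the log2 TES to gene body ratio in KO (horizontal axis, KO minus WT) in pairs 1, 2 and 3 (steps, percent of genes), with the median of each pair as a dashed line. The medians lie at -0.13, -0.09 and -0.03, all left of 0, and the distributions overlap widely.

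In the TES regions themselves, limma-voom with the pair as a block called 3 of the 12076 higher in KO and 0 lower at an adjusted p under 0.1. Over all 36321 regions the same fit called 0.121% higher and 0.0138% lower. At an unadjusted p under 0.05 it gave 168 TES regions higher and 586 lower, where all regions gave 4.59% higher and 3.61% lower. The split turned when libraries were scaled on TES regions alone, to 310 higher and 245 lower, with 5 called higher and 0 lower. edgeR called 3 higher and 0 lower (174 and 537 at an unadjusted p under 0.05), and DESeq2 5 higher and 0 lower (48 and 71). Without the block limma called 0, with 15 higher and 12 lower at an unadjusted p under 0.05. When pair 1 was left out there were 37 calls, without pair 2 there were 3 and without pair 3 there were 44, with 13, 2 and 27 of them lower. Leaving out replicate 1 alone gave 58 (WT) and 59 (KO), replicate 2 10 and 17, and replicate 3 53 and 54. With the pair as a block, a library without its partner adds almost nothing to the genotype estimate. These fits are therefore not checks separate from those without the pair.

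The first of the 3 was Slx1b, whose product is the nuclease subunit of the SLX1-SLX4 enzyme that cuts branched DNA. Its TES region held 6.25, 4.23 and 3.01 CPM in WT and 12.1, 9.21 and 7.22 CPM in KO, so that every KO library stood above every WT library. The difference was 1.07 ± 0.15 on the log2 scale (SE, limma adjusted p = 0.0395), whereas its gene body differed by 0.07 ± 0.10 (limma adjusted p = 0.902). Armh1, a gene of an armadillo-like helical domain protein, had 0.928, 1.07 and 3.49 CPM in WT and 2.59, 2.59 and 7.79 in KO. It rose in each pair, with overlapping groups (log2 fold change 1.26 ± 0.23, limma adjusted p = 0.0874). The histone H3 gene Hist1h3a had 51.3, 49.7 and 40.4 CPM in WT and 91.2, 58.0 and 66.5 in KO, again without overlap (0.59 ± 0.10, limma adjusted p = 0.0858). Its window also holds the start of Hist1h4a on the same strand. The window of Slx1b overlaps Gm6939 and that of Armh1 overlaps 1700012C08Rik, both on the same strand, so the reads cannot be assigned to 1 gene. Over 9 other tools, scalings, values and choices of genes, Slx1b was called in 8 and Armh1 and Hist1h3a in 6 each. Hist1h3a was also called without any 1 of the pairs, whereas Slx1b (limma adjusted p = 0.253) and Armh1 (0.36) were not called without pair 2.

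The genes with the smallest p that did not pass were, among those with higher values, the histone genes Hist1h1a (0.89 ± 0.17, limma adjusted p = 0.113) and Hist1h4i (0.76 ± 0.15, 0.117). Among those with lower values they were Gm10800 (-0.29 ± 0.06, limma adjusted p = 0.108), Apoe, which encodes a lipid carrier (-0.76 ± 0.15, 0.120), 1110008P14Rik (-0.91 ± 0.20, 0.166), and the transcription factor genes Tcf12 (-0.57 ± 0.12, 0.166) and Sox4 (-0.39 ± 0.09, 0.168). In Apoe the TES region had 24.6, 11.3 and 2.11 CPM in WT and 14.5, 5.75 and 2.34 in KO. The pairs differed more than the genotypes there, and pair 3 was slightly higher in KO in CPM.

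The ratio of TES to gene body reads, tested with limma under the same block, was called in 22 genes, 6 higher (0.0497% of the 12076 genes) and 16 lower (0.132%). At an unadjusted p under 0.05 there were 181 higher (1.5%) and 795 lower (6.58%). Of the 22, 21 had 1 sign in all 3 pairs. The number of calls rests on how the spread was estimated. In the reported fit the spread followed the mean TES count, taken as that of the sparser region. In some called genes, such as Hist2h2aa2, Hist2h2ac and Tmem107, the gene body held fewer reads than the TES region in every library. There the TES count does not set the precision of the ratio, and the called p-values may be too small. With a trend on the mean ratio or with no trend only Gm11168 was called, and without the block 0 were (45 higher and 207 lower at an unadjusted p under 0.05). A test in edgeR, the interaction of genotype and region over both kinds of counts, called 7 higher and 14 lower, 16 of them among the 22. With each library centred on its median ratio the calls were 8 higher and 10 lower (16 shared), and at an unadjusted p under 0.05 423 were higher and 416 lower. Leaving out pair 1 gave 40 calls, pair 2 25 and pair 3 94, with 17, 13 and 17 of the 22 among them. The calls of Gadd45g, Mrpl34 and Dolk ended without pair 1 and without pair 2, those of Hist2h2ac and Nefm without pair 1, and those of Sox9, Tob1, Fam122a, Klf4, Gm10718 and Gm10722 without pair 2. Without pair 3 those of Hes5, Tmem107, Klf4, Nefm and Gm10715 ended. Leaving out WT or KO replicate 1 alone gave 44 each, and WT or KO replicate 3 alone 99 and 95. Replicate 2 left out gave 26 (WT) and 23 (KO). As for the TES regions, these fits are not separate from those without the pair.

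Rrm1, which encodes the large subunit of ribonucleotide reductase and so serves DNA synthesis, had the steepest rise among genes that are not repeat-like. Its TES region held 5, 10 and 42 reads in WT and 121, 73 and 77 in KO, beside 482, 869 and 686 gene body reads in WT and 1112, 701 and 752 in KO. Per 100 gene body reads these were 1.04, 1.15 and 6.12 in WT and 10.9, 10.4 and 10.2 in KO. All KO libraries lay above all WT libraries, WT replicate 3 lay between, and the KO values were close to the median gene. The log2 change of the ratio was 2.37 ± 0.33 (limma adjusted p = 0.000392), and it was called without any 1 of the pairs. Rrm1 lies on chromosome 7 at 102441695 to 102469771 on the plus strand, its window overlaps no other annotated gene, and the next gene, Olfr543, is 6808 bases away and transcribed towards it.

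The other higher ratios that are not repeat-like were those of Slx1b and Armh1. Slx1b had 31.6, 23.8 and 22.8 TES reads per 100 gene body reads in WT and 57.9, 48.9 and 54.8 in KO, without overlap (log2 change 1.05 ± 0.16, limma adjusted p = 0.00156). Armh1 had 5.65, 3.84 and 8.40 in WT and 16.1, 9.41 and 19.1 in KO, again without overlap (1.31 ± 0.22, limma adjusted p = 0.00468). The gene body log2 fold changes of Rrm1, Slx1b and Armh1 were 0.22, 0.07 and -0.02, none of them called. In the TES region Slx1b and Armh1 were called, as given above, and Rrm1 was not, at 2.18 ± 0.49 (limma adjusted p = 0.17).

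A set of 4 predicted genes on chromosome 9, Gm11168, Gm10722, Gm10715 and Gm10718, made up the rest of the higher ratios and 1 of the lower. They lie between 3000922 and 3038316 on the plus strand, and their windows all overlap the annotated transcript Gm26870 and in part each other, so they share reads and are not separate results. Gm11168 had 539, 703 and 16 TES reads in WT and 2135, 3734 and 6406 in KO, with 8223, 4630 and 148 gene body reads in WT and 6484, 4299 and 7841 in KO. Its ratio was higher in KO in every pair (2.57 ± 0.14, limma adjusted p = 1.09e-13). Gm10718 differed the other way (-1.81 ± 0.36, limma adjusted p = 0.0166), with 21.0, 156 and 13.9 TES reads per 100 gene body reads in WT and 10.1, 8.2 and 12.9 in KO, where WT replicate 2 lay far above the rest. Without pair 2 its change was -0.58 (limma adjusted p = 0.602). Over all 212 predicted Gm genes kept, these 4 were called, and with all Gm genes removed 22 genes passed, 4 higher and 18 lower, 18 of them among the 22.

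**Figure D3:**
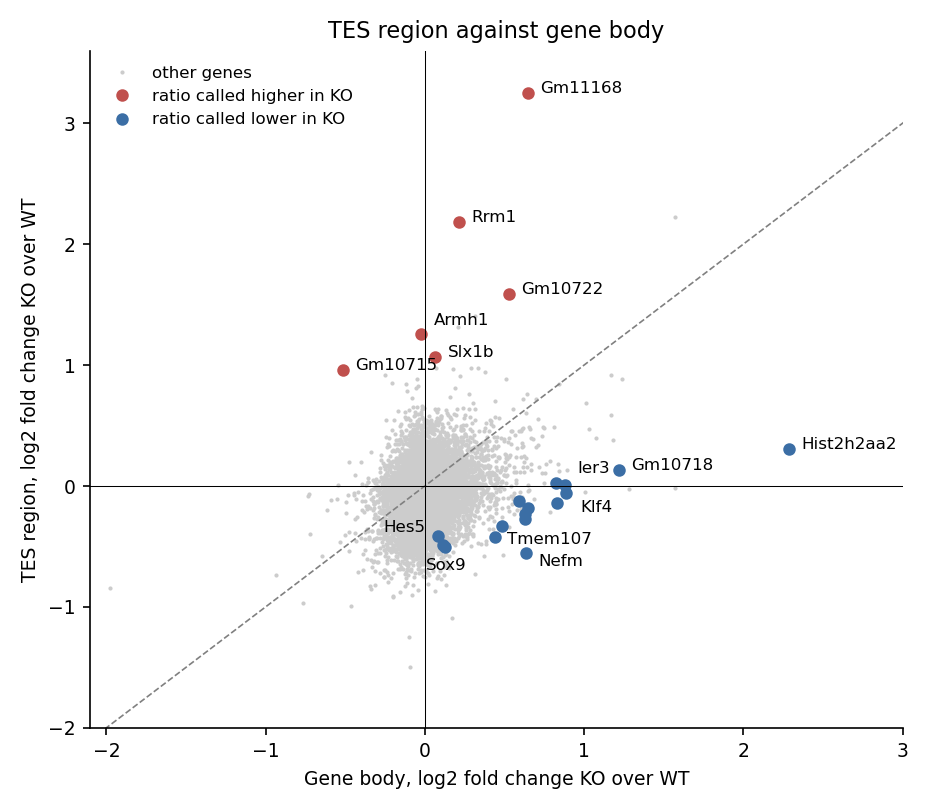
Log2 fold change of KO over WT in the gene body (horizontal axis) and in the TES region (vertical axis) of 12076 genes (grey), with the 6 genes whose ratio was called higher in red and the 16 called lower in blue. On the dashed line both regions change alike, and the 16 blue genes all lie right of 0 on the gene body axis, while the red Rrm1, Slx1b and Armh1 lie near 0 there and above 0 on the TES axis.

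The 16 genes with a lower ratio were mostly short and had higher values on the gene body side. All 16 had a gene body log2 fold change above 0 (median 0.63) and 4 of these gene bodies were called. Of their TES regions, 12 had a value below 0 (median -0.21), 4 at an unadjusted p under 0.05 and 0 called. Since the ratio is made from both, these signs are a description of it. In length, 13 of the 16 were under 5 kb, as were 11.6% of all genes kept. Under 6000 bases, a length that is not among the classes used below, lay 15 of the 16 and 14.4% of all genes kept. The median length of the 16 was 1732 against 24338 bases. The windows of 7 of the 16 overlapped no other gene, and with genes under 2000 bases left out, an alternative chosen after the values were seen, 9 genes passed, 4 higher and 5 lower.

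The list of immediate early genes had 3 members among them, Ier3, Gadd45g and Klf4. Ier3, an immediate early gene with a role in cell survival, had 386, 165 and 160 TES reads per 100 gene body reads in WT and 149, 109 and 87.5 in KO, without overlap (log2 change -0.94 ± 0.15, limma adjusted p = 0.00263). Its TES region had a log2 fold change of 0.01 ± 0.12 while its gene body rose (0.88 ± 0.16, limma adjusted p = 0.093), and its window holds the start of Flot1 on the same strand. Gadd45g, of a family of growth arrest and stress genes, had 120, 85.0 and 66.3 in WT and 66.6, 42.9 and 49.8 in KO (-0.75 ± 0.15, limma adjusted p = 0.0202). It was lower in each pair, and the groups overlapped slightly. Tob1, which is in no list and encodes an antiproliferative protein, had 98.8, 90.2 and 56.3 in WT and 58.8, 58.0 and 33.8 in KO (-0.71 ± 0.14, limma adjusted p = 0.0165), lower in each pair with overlapping groups. Klf4, a zinc finger transcription factor gene, had 32.2, 31.3 and 69.4 in WT and 22.7, 12.6 and 28.8 in KO, without overlap, from 32 to 71 TES reads a library (-1.02 ± 0.24, limma adjusted p = 0.0982). The windows of Gadd45g, Tob1 and Klf4 were free of other genes.

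Sox9 and Hes5 are members of the list of neural precursor genes. Sox9, a transcription factor gene of neural stem cells and glia, had 37.6, 38.7 and 51.5 TES reads per 100 gene body reads in WT and 26.5, 22.0 and 31.2 in KO. The groups did not overlap (log2 change -0.68 ± 0.14, limma adjusted p = 0.0422). The log2 fold changes were -0.49 ± 0.15 in its TES region and 0.11 ± 0.12 in its gene body. Hes5, a target of the Notch pathway that keeps precursors dividing, had 203, 174 and 184 in WT and 145, 140 and 81.6 in KO, without overlap (-0.66 ± 0.15, limma adjusted p = 0.0848). Without pair 3 the change was -0.40 (limma adjusted p = 0.392). Its window overlaps the start of Pank4. Nefm, a neurofilament gene of neurons that is in no list, had 4.73, 5.00 and 9.14 in WT and 1.34, 2.88 and 4.11 in KO, from only 14 to 50 TES reads (-1.25 ± 0.29, limma adjusted p = 0.0848). Nefm is also the longest of the 16, with 42257 bases.

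Of the remaining genes, Rplp1, which encodes a stalk protein of the large ribosomal subunit, had 190, 103 and 104 in WT and 104, 64.8 and 57.3 in KO (log2 change -0.79 ± 0.14, limma adjusted p = 0.00722). It was lower in each pair, with KO replicate 1 level with 2 of the WT libraries. Mrpl34, a mitochondrial ribosomal protein gene of 789 bases, had 208, 182 and 191 in WT and 111, 97.8 and 106 in KO, with no overlap (-0.88 ± 0.18, limma adjusted p = 0.0262). Gamt, a gene of creatine synthesis, had 92.7, 89.8 and 85.2 in WT and 60.0, 64.9 and 43.9 in KO, without overlap (-0.68 ± 0.15, limma adjusted p = 0.044). Fam122a (-0.98 ± 0.18, limma adjusted p = 0.00949) and Dolk, which encodes dolichol kinase (-0.76 ± 0.18, 0.0982), were lower as well, with their windows overlapping Pip5k1b on the same strand and Gm28038 on the opposite strand. Tmem107, a gene of the base of the primary cilium, had 843, 327 and 1004 in WT and 616, 211 and 296 in KO (-0.95 ± 0.17, limma adjusted p = 0.00722), lower in each pair although the groups overlapped. Without pair 3 the change was -0.54 (limma adjusted p = 0.111). Its window holds Snord118, the gene of the U8 small nucleolar RNA, which starts 134 bases downstream, so the reads cannot be assigned to Tmem107.

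**Figure D4:**
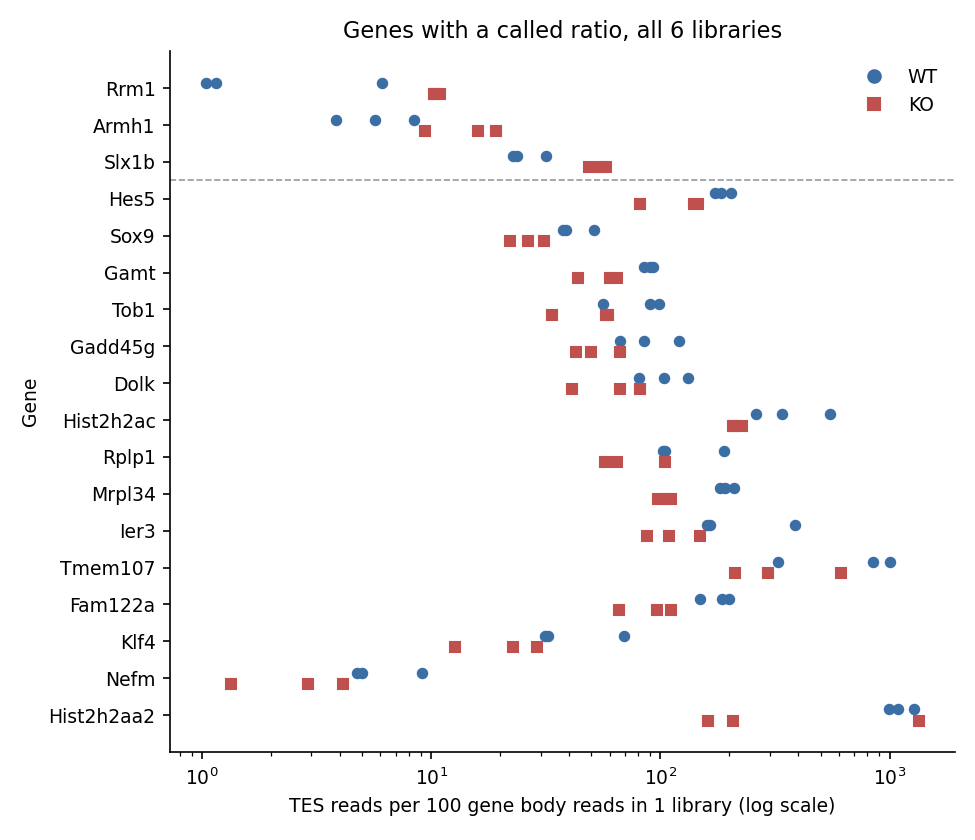
TES reads per 100 gene body reads (horizontal axis, log scale) in each of 3 WT (blue circles) and 3 KO (red squares) libraries for the 18 called genes that are not predicted Gm genes. Above the dashed line are the 3 with a higher ratio in KO and below it the 15 with a lower one, of which Hist2h2aa2 has its KO libraries at 161, 207 and 1345.

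The ends of histone genes were the group with the lowest median change of the ratio. The gene lists, here and below, were chosen with earlier results of these data known. Their counts beside those of all genes are a description and not a test. Of 31 core histone genes 2 were called lower and 0 higher (0.132% and 0.0497% over all genes). At an unadjusted p under 0.05, 14 were lower and 0 higher (6.58% and 1.5% over all genes). A value below 0 was found in 28 of the 31 (64.2% over all genes), and the median log2 change was -0.33, against -0.08 over all genes. Beside it stood a gene body median of 0.61 and a TES median of 0.24, so that both regions had higher values in KO and the gene body more so. Their summed TES signal was 282, 457 and 349 CPM in WT and 485, 449 and 484 CPM in KO, higher in pairs 1 and 3 only. The median ratio change was -0.65 in pair 1 and -0.17 and -0.13 in pairs 2 and 3. Hist2h2ac, a core histone gene, had 547, 339 and 263 TES reads per 100 gene body reads in WT and 226, 209 and 208 in KO, without overlap (-0.77 ± 0.15, limma adjusted p = 0.0166). Its TES region had a log2 fold change of 0.03 ± 0.10. Hist2h2aa2 had 1087, 1272 and 998 in WT and 1345, 161 and 207 in KO, so the fall came from pairs 2 and 3 alone (-1.64 ± 0.29, limma adjusted p = 0.00722). It was -2.62 without pair 1 and -0.97 without pair 2. The windows of both hold other histone genes, near-identical histone genes can share reads, and the median length of the 31 genes was only 820 bases. The 4 linker histone genes had a median of -0.23 with 0 called by limma (0 at an unadjusted p under 0.05), and pair medians of -0.74, -0.33 and 0.36.

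Of 36 immediate early genes, 3 were called lower (Ier3, Gadd45g and Klf4) and 0 higher, where all genes gave 0.132% and 0.0497%. This list too was chosen with earlier results of these data known, and a higher gene body signal lowers the ratio by construction. The counts therefore describe the list and are not separate support. At an unadjusted p under 0.05 there were 14 lower and 1 higher (6.58% and 1.5% over all genes). A value below 0 was found in 31 (64.2% over all genes), and the median was -0.26. Pair medians were -0.42, -0.19 and -0.30. The TES median of the group was 0.01 and the gene body median 0.28, and the summed TES signal was 542, 348 and 339 CPM in WT and 509, 338 and 407 in KO. The phosphatase gene Dusp2 had the lowest value after Klf4 and Ier3 (-0.90 ± 0.29, limma adjusted p = 0.343). The genes that follow were named after their values were seen, and values differed within families. Fos (-0.19), Jun (-0.14), Egr1 (-0.12) and Myc (-0.08) lay closer to the median of all genes than Egr4 (-0.63), Junb (-0.45), Fosl2 (-0.42) and Jund (-0.42). Fosl1 (0.03) and Egr3 (0.02) lay just above 0. Fosb, singled out after its value was seen, had the highest (0.52 ± 0.24, limma adjusted p = 0.578).

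Of 14 neural precursor genes, 2 were called lower (Sox9 and Hes5) and 0 higher (0.132% and 0.0497% over all genes). At an unadjusted p under 0.05, 3 were lower and 0 higher (6.58% and 1.5% over all genes), and the median was -0.18. Pair medians were -0.13, -0.02 and -0.30 for these genes, lowest in pair 3. Vim had -0.31 ± 0.14, Hes1 -0.26 ± 0.16, Sox2 -0.03 ± 0.14 and Nes 0.03 ± 0.14, none called. Of 78 ribosomal protein genes, 1 (Rplp1) was called lower and 0 higher (0.132% and 0.0497% over all genes). At an unadjusted p under 0.05, 8 were lower and 0 higher (6.58% and 1.5% over all genes). Their median was -0.07, and it lay at -0.28 in pair 1 and at 0.02 and 0.05 in pairs 2 and 3. The 12 genes of Pol II subunits had 0 called by limma (3 lower and 0 higher at an unadjusted p under 0.05, against 6.58% and 1.5% over all genes). Their median was -0.27, and 10 had a value below 0, as did 64.2% of all genes. The lowest were Polr2j (-0.61 ± 0.19) and Polr2e (-0.58 ± 0.18, limma adjusted p = 0.306 each), and Polr2a itself had -0.17 ± 0.18.

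Genes whose products act at the ends of genes had 0 called by limma in either direction (0.0497% higher and 0.132% lower over all genes). At an unadjusted p under 0.05 there were 0 higher and 2 lower, against 1.5% and 6.58% over all genes. Of these 2, 1 was of Integrator and 1 of histone 3′ end processing. The median was -0.10 for 17 cleavage and polyadenylation genes, -0.04 for 10 termination genes, 0.05 for 14 genes of Integrator, the complex that cleaves small nuclear RNAs and paused transcripts, and -0.08 for 9 genes of histone 3′ end processing. Members had values of -0.32 ± 0.17 for Xrn2, -0.19 ± 0.14 for Pcf11, which helps release Pol II, and -0.24 ± 0.21 for Slbp, which binds the histone stem-loop. The medians of 27 pausing and elongation genes (-0.07), 25 p53 targets (-0.10) and 11 host genes of small nucleolar RNAs (-0.08) also stood near that of all genes, with 0 called in each. At an unadjusted p under 0.05 these lists had, in that order, 1 higher and 2 lower, 0 and 4, and 1 and 0. Over all genes 1.5% were higher and 6.58% lower. Median gene lengths were 820 bases for the core histones, 5884 for the Pol II subunits and 4687 for the immediate early genes, which had the lowest medians. They were 1152 for the linker histones (median -0.23), 4201 for the neural precursor genes (-0.18) and 3238 for the ribosomal protein genes (-0.07). Whether gene length bears on the medians of the lists was not tested.

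By length, the median change of the ratio was -0.12 in 1398 genes under 5 kb, -0.09 in 3919 of 5 to 20 kb, -0.07 in 5022 of 20 to 100 kb and -0.06 in 1732 over 100 kb. The gene body medians over these classes ran from 0.10 to -0.04 and the TES medians from -0.03 to -0.10. Called genes were 3 higher and 13 lower in the shortest class and 0 in the longest. By the neighbourhood of the window, the median was -0.09 for 7222 free windows, -0.09 for 3243 that overlap a gene on the opposite strand only and -0.05 for 1606 that overlap one on the same strand. In the 1327 windows that hold the start of another gene it was -0.03, against -0.09 in 10744 that hold none. By poly(A) signal it was -0.08 with AATAAA, -0.08 with only ATTAAA and -0.09 with neither, so the classes by signal differed by less than the pairs did.

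**Figure D5:**
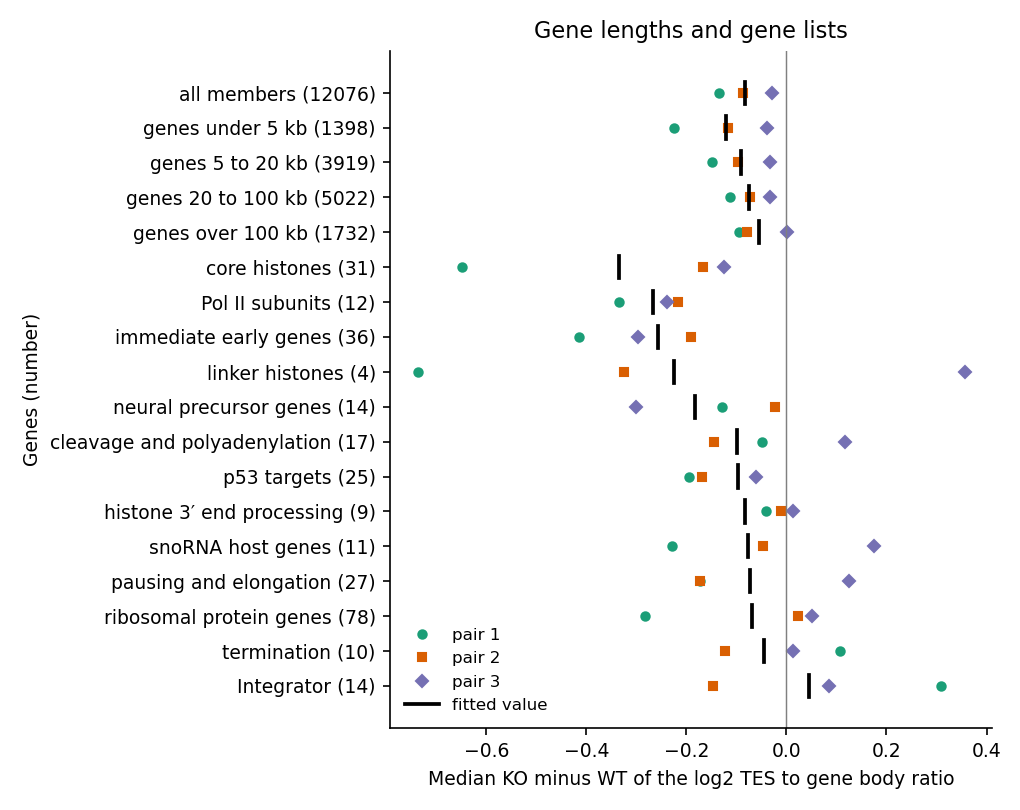
Median change of the log2 TES to gene body ratio (horizontal axis, KO minus WT) over all genes, over genes by length and over the gene lists, with the number of genes in parentheses. Symbols give pairs 1, 2 and 3 and the black line the fitted value, which lies at -0.33 for core histones, -0.27 for Pol II subunits and -0.26 for immediate early genes against -0.08 for all members.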

How the data were processed

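Pol II occupancy was measured by ChIP-seq in 3 WT and 3 Armc5(-/-) samples. Per the labels, cells were fixed with 1% formaldehyde and chromatin was sheared to 200 to 800 bases, and no input or spike-in was used here. Tools named by the submitters' notes are HOMER, MACS2, BWA, Picard, Trimmomatic, limma, edgeR and bcl2fastq 2.20, on GRCm38 (mm10). The sources used here do not give the annotation behind the windows. As whole numbers, the authors deposited raw read counts for the promoter (400 bases before to 100 after the start), gene body and TES region. Genes without signal in KO had been removed. The authors also deposited log2 CPM values (TMM and voom), used as an alternative.

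TMM scaling and limma-voom ran over all 36321 regions (R 4.3.3, edgeR 4.0.16, limma 3.58.1, DESeq2 1.42.0), with two-sided tests and p-values adjusted by Benjamini-Hochberg over these regions. The ratio, log2((TES + 0.5)/(gene body + 0.5)), was tested with limma over 12076 genes, the spread following the mean log2 TES count. A call was an adjusted p under 0.1. Both tests were run on simulated counts with a small fixed spread and without pair effects. As the libraries here do differ by pair, that check does not give the error rates in these data. The pair was a block, since same-numbered libraries deviated together (correlations of 0.75, 0.56 and 0.66 for TES signal and 0.49, 0.40 and 0.55 for the ratio). No libraries of a group were copies (chi-square per degree of freedom 9.01 to 17.9). Per the study's methods the pairs were biological replicates.

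Positions, overlaps and sequences come from GRCm38, with GENCODE vM21 genes (12029) or RefSeq (42), and 5 genes unplaced. Signal per base used a window of 2101 bases and genes of at least 1000 bases. Named were all called TES regions and the first 10 called ratios in each direction (the 6 others lower are named after their values were seen), up to 5 of smallest p where under 5 were called, the 8 highest TES levels, the 6 highest and 6 lowest per-base ratios among free windows, up to 4 of smallest p per list, of which a part is printed, and Polr2a, Gapdh (ratio change -0.29 ± 0.13, not called), Actb, Sox2 and Nes. The members and lists were chosen with earlier results of these data known. Of 3 other files, each repeats 1 region of the count table and none was used.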

Additional observations from a re-analysis of the deposited data

How the results depend on the processing

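None of the 10 TES regions named for their test and none of the 22 called ratios changed sign under the alternatives run. The TES regions called numbered 3, and 5 with DESeq2, 5 with TMM over TES regions alone, 1 with library totals without TMM, 0 without the replicate block, 13 without X- and Y-linked genes, 1 (Gm10800, lower) over windows that overlap no other gene and 6 without predicted Gm genes (the last chosen after the values were seen). Their median log2 fold change of -0.083 became -0.0084 with TMM over TES regions alone. Genes with a called ratio numbered 22, and 1 with a trend on the mean ratio, 1 with no trend, 0 without the replicate block, 14 over windows that overlap no other gene and 9 for genes of at least 2000 bases (chosen after the values were seen). The median change of -0.082 became -0.0034 with each library centred on its median. Leaving out replicate pairs or single libraries gave 3 to 59 TES calls and 23 to 99 ratio calls, TES medians from -0.0993 to -0.0414, ratio medians from -0.112 to -0.0557, library median differences from -0.114 to -0.0438 and differences in the TES share from -0.386 to -0.0997 percentage points. The causes were not tested. The median SE of 0.20 (log2) limits what single TES regions can show.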

Other observations

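By read depth, the median change of the log2 ratio was -0.07 in the 3045 genes with the fewest TES reads (median 31.7 reads), -0.08 in the next 3000, -0.10 in the next 3019 and -0.07 in the 3012 with the most (median 170 reads). Of the 22 called ratios 14 lay in the last of these classes, 3 higher and 11 lower.

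On chromosome 7, which carries Armc5, lie 930 of the genes kept (7.70%). Of the 6 genes with a higher ratio, Rrm1 and Slx1b lie there, and of the 16 with a lower ratio 0 do. These genes were singled out after their values were seen, and no test was made.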
